A study of Schizosaccharomyces pombe with 8 samples.

Results

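The mitochondrial ribosomal protein genes described here are the features of the deposited counts whose names begin with mrpl or mrps followed by a digit, with antisense features left out. This rule gave 33 of the 6973 features listed, and all 33 had enough reads to be tested. Of these, 27 are named mrpl, for proteins of the large subunit of the mitochondrial ribosome, and 6 are named mrps, for proteins of the small subunit. The RefSeq annotation of the fission yeast genome (assembly ASM294v3) holds 32 of the 33 names, each with a mitochondrial ribosomal protein as its product. The remaining feature, mrpl1602, lies where that annotation has mrpl6, the gene of uL6m. A further 43 features have a mitochondrial ribosomal protein as their RefSeq product but carry other names, and their values are given side by side with those of the 33 genes at the end.

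Mitochondria keep a small genome of their own and translate its messages on a dedicated ribosome. The RNA of this ribosome is made inside the organelle, whereas nearly all of its proteins are encoded in the nucleus, made in the cytosol and imported. In yeasts the products of mitochondrial translation are mostly core subunits of the respiratory chain and of ATP synthase, so that the ribosome is needed for respiration. In the names of the proteins, a leading u marks families found in all kingdoms of life, b marks families shared with bacteria and m marks families known only from mitochondrial ribosomes, followed by L or S for the subunit.

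RNA was sequenced from ribosomal RNA-depleted total RNA of Schizosaccharomyces pombe in 4 genotypes, with 2 libraries each. All strains were h90, that is homothallic, and were taken in exponential phase from liquid cultures in EMM, a minimal medium. The double mutant mot2∆ mamRNA∆ carried the alleles mamRNA::hygTK and mot2::kanMX, the mot2∆ strain carried mot2::natMX, the mamRNA∆ strain carried mamRNA::natMX, and wt was the h90 wild type. The marker cassettes of the double mutant therefore differ from those of the single mutants, and an effect of the cassette cannot be told apart from one of the genotype. Mot2 ligates ubiquitin to proteins as part of Ccr4-Not, the complex that shortens the poly(A) tails of messenger RNAs. mamRNA is a lncRNA to which Mmi1 and Mei2 bind, both of them RNA-binding proteins that control meiotic transcripts. The comparisons ask how the level of each transcript differs in each mutant and whether deleting mamRNA has the same effect with and without Mot2. The labels do not say whether the 2 libraries of a genotype came from separate cultures, so p-values measure only the spread between these libraries, which may be technical.

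The deleted gene checked the mot2∆ labels. The feature mot2 had 2.72 and 2.77 counts per 1000000 (CPM) in mot2∆ mamRNA∆ and 4.11 and 4.26 CPM in mot2∆, against 18.9 and 18.8 CPM in mamRNA∆ and 22.3 and 23.4 CPM in wt. No such check exists for the mamRNA∆ labels, because the level of mamRNA itself was not analysed here. Total counts ranged from 22381332 to 34667534 per library, and a single mitochondrial ribosomal protein gene had between 89 and 4180 counts in a library. The median absolute difference between the 2 libraries of a genotype over the 33 genes was 0.05 in mot2∆ mamRNA∆, 0.09 in mot2∆, 0.04 in mamRNA∆ and 0.12 in wt on the log2 CPM scale, so that the wt libraries differed most. The 37 features encoded in mitochondrial DNA, which include both ribosomal RNAs of the organelle, were listed at 0 in every library, and the RNA partner of these proteins was therefore not measured. The data come from whole cultures, where fewer expressing cells and less RNA per cell cannot be told apart.

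Summed over the 33 genes, the level was 1077 and 1077 CPM in mot2∆ mamRNA∆, 968 and 1008 CPM in mot2∆ and 1077 and 1075 CPM in mamRNA∆, against 1132 and 1168 CPM in wt. Both wt libraries lay above every mutant library, and both mot2∆ libraries lay below all others. The place of wt depended on the scaling. As a plain share of total counts, wt replicate 1 (0.1077%) lay below both mamRNA∆ libraries (0.1094% and 0.1098%). The mot2∆ libraries (0.0998% and 0.1022%) were still the lowest. No test of these sums was run. By the mean over the libraries of a genotype, 11 of the 33 genes were lowest in mot2∆ mamRNA∆, 15 in mot2∆, 4 in mamRNA∆ and 3 in wt, and 6 were highest in mot2∆ mamRNA∆, 1 in mot2∆, 11 in mamRNA∆ and 15 in wt. The ratio between the genotype with the highest and the one with the lowest mean was between 1.11 and 2.73 per gene, with a median of 1.33, so most of these genes differed little between genotypes.

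**Figure D1:**
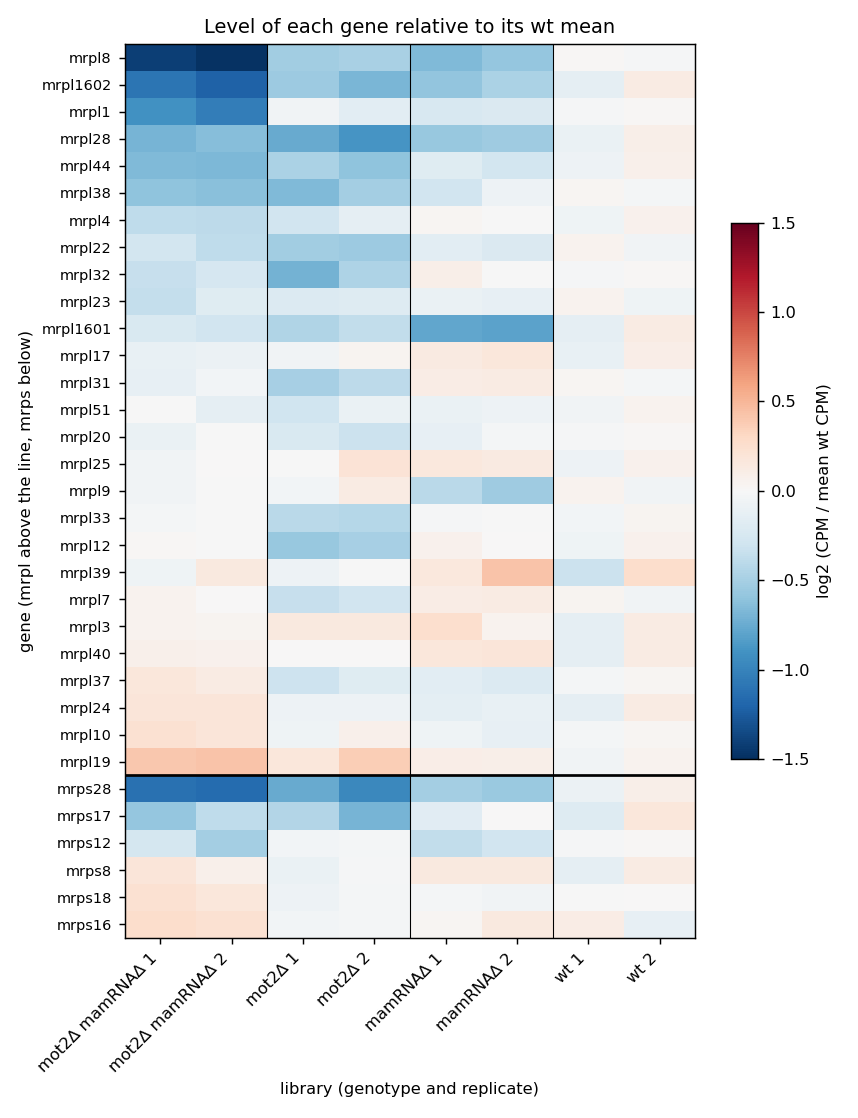
Level of each of the 33 genes in each of the 8 libraries, as the log2 ratio of its CPM to its mean CPM in wt (blue lower, red higher), with the 27 mrpl genes above the line and the 6 mrps genes below it, ordered by the change in mot2∆ mamRNA∆. mrpl8, mrpl1602, mrpl1 and mrps28 are dark in both mot2∆ mamRNA∆ libraries, mrpl1601 is darkest in mamRNA∆, and mrpl12 and mrpl32 are lower in mot2∆ than in the other genotypes.

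Levels of different genes were compared per kilobase of annotated exon, over the 32 genes with a length. The highest was mrps16, a small subunit protein, at 101 CPM per kb, followed by mrpl7 (uL5m, a protein of the central protuberance in bacterial ribosomes) at 63.0 CPM per kb and mrpl32 (bL32m) at 57.9 CPM per kb. The lowest were mrpl39 (bL33m) at 6.11 CPM per kb, mrpl8 (bL17m) at 11.4 CPM per kb and mrpl3 (mL44) at 13.96 CPM per kb. The highest level was 16.5 times the lowest. All of the genes named in this ranking overlap a non-coding RNA on the opposite strand in the annotation, mrps16 over 694 bases. The part of such RNAs in these levels was not tested.

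Many of these genes share their place in the genome with another gene. In the annotation 29 of the 33 overlap at least 1 other annotated gene and 20 overlap a protein-coding one, mostly on the opposite strand, with overlaps as long as 1531 bases for mrpl24, 1390 for mrpl9, 1119 for mrps28 and 1048 for mrpl12. In addition, mrpl8 overlaps the end of sme2, the gene of the meiotic non-coding RNA meiRNA, by 212 bases on the same strand. Whether strand was used in counting is not given in the sources used here. The antisense features of mrpl4, mrps8 and mrps17 had 0.984, 0.615 and 0.484 times the counts of the sense features, and the median of this ratio over 531 pairs of features was 0.852. Where features overlap, reads of the partners therefore cannot be told apart, and the partner's values are given beside several of the genes concerned.

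In mot2∆ the 33 mrpl and mrps genes were mostly lower than in wt. A gene was called at an adjusted p under 0.05 in edgeR's quasi-likelihood test across all features, with no minimum fold change. By this rule 18 of the 33 fell and 1 rose, whereas 30.2% of all features tested were called lower and 29.1% higher. The median log2 fold change was −0.21 for the 33 genes and −0.01 for all features. Among the mrpl genes 16 of 27 fell, and among the mrps genes 2 of 6. Of the 43 mitochondrial ribosomal protein genes with other names, 11 fell and 9 rose.

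The largest decrease was that of mrps28, which encodes uS15m, the counterpart of a bacterial protein that binds the small subunit RNA early in assembly. It had 16.7 and 14.5 CPM in mot2∆, against 26.6 and 30.0 CPM in wt. Both mot2∆ libraries lay well below both wt libraries, and the log2 fold change was −0.86 ± 0.10 (SE, adjusted p = 1.5e-05). Its opposite-strand partner cog8, a Golgi transport gene, had 30.5 and 28.4 CPM in mot2∆, against 38.1 and 46.9 CPM in wt, and fell by 0.53 on the log2 scale (adjusted p = 0.00038). The part of cog8 reads in the mrps28 value was not tested.

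mrpl28, the gene of mL40, a protein specific to mitochondrial ribosomes, had 11.2 and 10.3 CPM in mot2∆, against 17.8 and 20.3 CPM in wt. The groups did not overlap, and the log2 fold change was −0.82 ± 0.11 (SE, adjusted p = 3.7e-05). mrpl1602 (uL6m, whose bacterial counterpart lies near the site where translation factors bind) had 12.4 and 11.3 CPM in mot2∆, against 16.5 and 19.8 CPM in wt. Here too both mot2∆ libraries were below both wt libraries, by −0.62 ± 0.12 (SE, adjusted p = 0.00072). Its overlap with nce101 could not be followed, since nce101 was not analysed here.

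Decreases of similar size were found for mrpl32 (−0.58), mrpl38 (−0.58), mrps17 (uS17m, −0.57), mrpl12 (−0.54), mrpl44 (mL53, −0.54) and mrpl22 (uL22m, which lines the exit tunnel, −0.53), all as log2 fold changes with adjusted p values of 0.004 or less. Of these, mrpl12 encodes bL12m, the stalk protein that recruits translation factors to the ribosome. It had 40.9 and 43.0 CPM in mot2∆, against 58.2 and 63.4 CPM in wt, so that the groups were clearly apart (adjusted p = 3.8e-05). Its partner lsg1 overlaps most of mrpl12. In mot2∆ lsg1 had 14.3 and 14.8 CPM, against 20.8 and 21.9 CPM in wt. The decrease of lsg1 was 0.55 on the log2 scale (adjusted p = 0.00018). For mrps17, the partner rib4 had 46.6 and 48.6 CPM in mot2∆, against 70.8 and 67.8 CPM in wt, and fell by 0.54 on the log2 scale (adjusted p = 2.3e-05). The partner of mrpl22, SPCC1739.01, shares 893 bases with it and went the other way, with 443 and 375 CPM in mot2∆, against 362 and 288 CPM in wt (log2 fold change 0.33, adjusted p = 0.024).

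The only gene called higher in mot2∆ was mrpl19 (uL11m, at the base of the stalk), with 23.1 and 26.5 CPM in mot2∆, against 19.7 and 21.2 CPM in wt. The groups did not overlap, and the log2 fold change was 0.27 ± 0.09 (SE, adjusted p = 0.019). The call was lost without mot2∆ replicate 2 (adjusted p = 0.17), without wt replicate 1 (adjusted p = 0.055) and when only mot2∆ and wt were fitted (adjusted p = 0.058), which left 0 genes called higher. At an unadjusted p under 0.05, and with DESeq2, the count was also 1.

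The 21 genes that overlap a protein-coding gene or sme2 can be set beside the other 12 in mot2∆ against wt. This does not divide genes with any overlap from genes with none. Overlaps as short as 6 bases (mrpl25 with ned1) count among the 21. Several of the other 12 overlap a non-coding RNA on the opposite strand, such as mrpl4 with SPNCRNA.1139 over 543 bases. Of the 21 genes that overlap a protein-coding gene or sme2, 15 were called lower and the median log2 fold change was −0.41. Of the other 12, 3 were called lower (mrpl38, mrpl4 and mrpl44) and 1 higher, with a median of −0.04. Among all features 30.2% were called lower and 29.1% higher, so the share of the 12 that fell (25%) was close to that of all features. The part of the overlaps in the changes was not tested. mrpl38 and mrpl44, which overlap no annotated gene, had log2 fold changes as large as those of most of the 21 genes. mrpl38 had 9.02 and 9.98 CPM in mot2∆, against 14.6 and 13.9 CPM in wt, and mrpl44 had 8.52 and 7.84 CPM in mot2∆, against 11.3 and 12.5 CPM in wt. For both, the mot2∆ libraries lay below the wt libraries with no overlap.

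**Figure D2:**
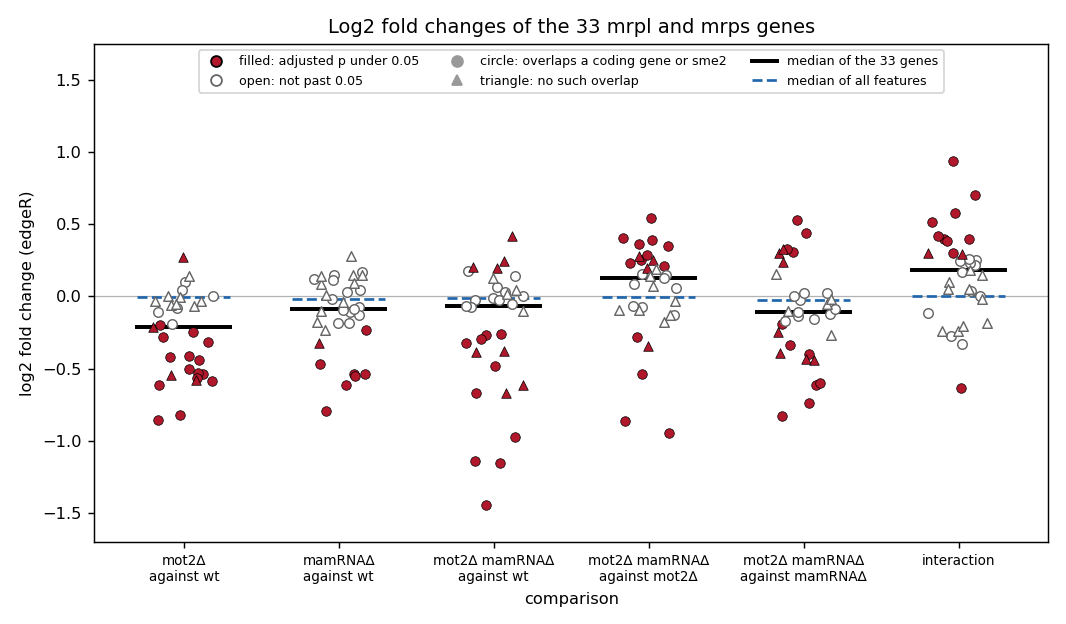
Log2 fold change of each of the 33 genes in each of the 5 genotype comparisons and in the interaction, filled where the adjusted p was under 0.05, as circles for the 21 genes that overlap a protein-coding gene or sme2 and triangles for the other 12. Black bars are the medians of the 33 genes and dashed blue bars those of all features; the black bar lies lowest for mot2∆ against wt (−0.21) and above 0 for mot2∆ mamRNA∆ against mot2∆ (0.13) and for the interaction (0.18).

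In mamRNA∆ fewer of the genes differed from wt. 8 of 33 fell and 0 rose, against 22.7% of all features called lower and 19.9% called higher, so the share that fell was close to that of all features. The count of 0 was the same at an unadjusted p under 0.05 and with DESeq2, but without wt replicate 2 it was 4 and without wt replicate 1 it was 2. The median log2 fold change was −0.08 for the 33 genes (−0.035 without wt replicate 2) and −0.02 for all features. The genes that fell were mrpl1, mrpl8, mrpl9, mrpl28, mrpl1601 and mrpl1602 of the large subunit and mrps12 and mrps28 of the small subunit.

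mrpl1601 showed the largest decrease. It encodes uL16m, whose bacterial counterpart lies close to the peptidyl transferase centre. It had 19.3 and 18.9 CPM in mamRNA∆, against 30.0 and 36.0 CPM in wt. The mamRNA∆ libraries were nearly equal and far below both wt libraries, with a log2 fold change of −0.79 ± 0.09 (SE, adjusted p = 4.5e-05). The gene shares 26 bases with lys4, a highly expressed gene of lysine synthesis, which had 698 and 709 CPM in mamRNA∆, against 962 and 827 CPM in wt (log2 fold change −0.35, adjusted p = 0.0092).

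mrpl8, the gene of bL17m, had 10.3 and 10.8 CPM in mamRNA∆, against 16.3 and 16.1 CPM in wt. The groups were apart and each varied little, and the log2 fold change was −0.62 ± 0.10 (SE, adjusted p = 0.00047). sme2, with which it overlaps, had 8.14 and 8.56 CPM in mamRNA∆, against 17.6 and 15.1 CPM in wt, and fell by 0.96 on the log2 scale (adjusted p = 2.8e-05). In mot2∆ the pair moved in opposite directions. There mrpl8 had 11.3 and 11.5 CPM, below both wt libraries (log2 fold change −0.50, adjusted p = 0.00096), while sme2 had 34.2 and 32.4 CPM, above both wt libraries (log2 fold change 1.03, adjusted p = 2.8e-06).

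mrpl28 had 12.8 and 13.1 CPM in mamRNA∆, against 17.8 and 20.3 CPM in wt, with no overlap between the groups (log2 fold change −0.55 ± 0.10, SE, adjusted p = 0.0013). mrpl9 (uL3m, a protein that reaches towards the peptidyl transferase centre) had 94.6 and 86.3 CPM in mamRNA∆, against 130 and 120 CPM in wt, and its log2 fold change of −0.47 was past the threshold (adjusted p = 0.00056). Its opposite-strand partner rna15, a gene of messenger RNA 3′ end formation, had 73.0 and 67.1 CPM in mamRNA∆, against 101 and 90.9 CPM in wt, and a log2 fold change of −0.45 (adjusted p = 0.0011).

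In the double mutant the log2 fold changes against wt ran from −1.45 to 0.42, beside −0.86 to 0.27 in mot2∆ and −0.79 to 0.28 in mamRNA∆. Against wt, 14 of 33 fell and 4 rose in mot2∆ mamRNA∆, whereas 30.5% of all features were called lower and 28.9% higher. The median log2 fold change was −0.07 for the 33 genes and −0.01 for all features. The median of the 33 genes was −0.12 with scaling by total counts, −0.034 without wt replicate 2, −0.10 without wt replicate 1 and −0.021 without double mutant replicate 1. The 3 genes mrpl8, mrpl1602 and mrps28 also passed a log2 fold change of −1, as did 5.76% of all features. The comparisons of the 3 mutants share the wt libraries, so that their values stand here side by side and no overlap between them was computed.

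mrpl8 was the gene with the largest decrease. It had 6.08 and 5.78 CPM in mot2∆ mamRNA∆, against 16.3 and 16.1 CPM in wt. Both double mutant libraries were far below those of every other genotype, and the log2 fold change from wt was −1.45 ± 0.11 (SE, adjusted p = 4.9e-07), a level of 0.37 times that of wt. sme2 had 8.17 and 8.45 CPM in mot2∆ mamRNA∆, against 17.6 and 15.1 CPM in wt (log2 fold change −0.97, adjusted p = 1.0e-05).

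mrpl1602 had 8.50 and 7.79 CPM in mot2∆ mamRNA∆, against 16.5 and 19.8 CPM in wt, and again both double mutant libraries were the lowest of all 8. Its log2 fold change was −1.16 ± 0.12 (SE, adjusted p = 7.0e-06). mrps28 had 13.0 and 12.7 CPM in mot2∆ mamRNA∆, against 26.6 and 30.0 CPM in wt, with a log2 fold change of −1.14 ± 0.10 (SE, adjusted p = 1.9e-06). Its double mutant libraries lay below those of all other genotypes. The partner cog8 had 24.4 and 24.0 CPM in mot2∆ mamRNA∆, against 38.1 and 46.9 CPM in wt, and fell by 0.82 on the log2 scale (adjusted p = 1.4e-05).

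mrpl1 (uL1m, whose bacterial counterpart forms the mobile stalk at the site where transfer RNAs leave) came next. It had 14.9 and 13.6 CPM in mot2∆ mamRNA∆, against 27.5 and 28.4 CPM in wt. Its log2 fold change was −0.97 ± 0.08 (SE, adjusted p = 1.8e-06), just short of −1. mrpl28 and mrpl44 each fell by 0.67 on the log2 scale (adjusted p = 0.00016 and 0.00032), and mrpl38 by 0.61 (adjusted p = 0.00061).

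Among the 4 genes called higher in mot2∆ mamRNA∆, mrpl19 had the largest increase. It had 27.1 and 27.6 CPM in mot2∆ mamRNA∆, against 19.7 and 21.2 CPM in wt, and the double mutant libraries lay above those of every other genotype. The log2 fold change from wt was 0.42 ± 0.09 (SE, adjusted p = 0.0015). mrps16 had 83.6 and 81.1 CPM in mot2∆ mamRNA∆, against 74.9 and 64.0 CPM in wt (log2 fold change 0.25 ± 0.08, SE, adjusted p = 0.018), and mrpl10 (uL15m) had 39.0 and 37.7 CPM in mot2∆ mamRNA∆, against 32.7 and 33.9 CPM in wt (log2 fold change 0.21 ± 0.07, SE, adjusted p = 0.031). For both genes the groups did not overlap. The fourth, mrps18, had 38.1 and 36.7 CPM in mot2∆ mamRNA∆, against 32.4 and 32.8 CPM in wt (log2 fold change 0.20, adjusted p = 0.024).

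The count of genes called higher in mot2∆ mamRNA∆ was 2 with scaling by total counts, with DESeq2 and when only the compared genotypes were fitted. It was 1 without either double mutant replicate and 6 without wt replicate 2. The calls of mrpl10 and mrps16 were among those lost: mrps16 had an adjusted p of 0.12 without wt replicate 2, and mrpl10 of 0.069 with DESeq2.

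**Figure D3:**
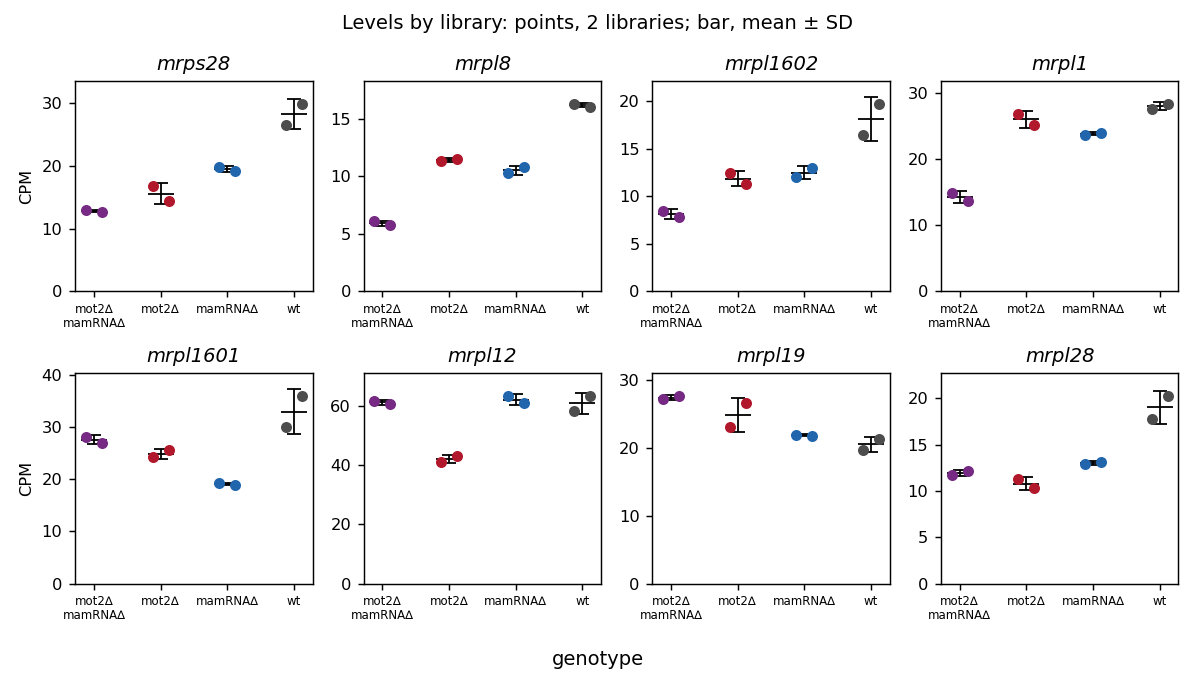
CPM of 8 of the genes in each library (points), with the mean and SD of the 2 libraries of each genotype (bars), on axes that start at 0. mrpl8, mrpl1602, mrps28 and mrpl1 are lowest in mot2∆ mamRNA∆, mrpl1601 is lowest in mamRNA∆ (19.3 and 18.9 CPM), mrpl12 is lowest in mot2∆ (40.9 and 43.0 CPM), mrpl28 is below wt in all 3 mutants, and mrpl19 is highest in mot2∆ mamRNA∆.

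Deleting mamRNA in cells without Mot2 changed the genes in both directions. In mot2∆ mamRNA∆ against mot2∆, 12 of 33 rose and 5 fell, whereas 27.4% of all features were called higher and 28.8% lower. The median log2 fold change was 0.13 for the 33 genes and −0.01 for all features. With scaling by total counts, the median of the 33 genes was 0.04, that of all features was −0.09, and 6 genes were called higher and 5 lower. The median of the 33 genes was 0.057 without mot2∆ replicate 1. The count called higher was 7 without mot2∆ replicate 1 and without either double mutant replicate, and the count called lower was 3 without double mutant replicate 2.

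The largest increase was that of mrpl12, at 61.7 and 60.5 CPM in mot2∆ mamRNA∆, against 40.9 and 43.0 CPM in mot2∆. The groups were clearly apart (log2 fold change 0.54 ± 0.07, SE, adjusted p = 3.9e-05), and the double mutant values lay within the range of the wt libraries (58.2 and 63.4 CPM). lsg1, on the opposite strand, had 30.5 and 30.8 CPM in mot2∆ mamRNA∆, against 14.3 and 14.8 CPM in mot2∆ (log2 fold change 1.08, adjusted p = 7.5e-07).

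mrpl33 (uL30m) had 16.4 and 16.7 CPM in mot2∆ mamRNA∆, against 12.6 and 12.4 CPM in mot2∆. Both double mutant libraries were higher, by 0.40 ± 0.09 on the log2 scale (SE, adjusted p = 0.0024), and its opposite-strand partner SPCC1919.07 had a log2 fold change of 0.55 (adjusted p = 0.00013). mrpl37 (mL54) had 22.1 and 21.3 CPM in mot2∆ mamRNA∆, against 15.8 and 17.3 CPM in mot2∆, with no overlap between the groups (log2 fold change 0.39 ± 0.09, SE, adjusted p = 0.0022). Increases were also called for mrpl31 (mL60, 0.37), mrpl7 (0.35) and mrpl32 (0.29), as log2 fold changes.

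The same comparison gave the largest decreases for mrpl8, mrpl1 and mrpl1602. mrpl8 had 6.08 and 5.78 CPM in mot2∆ mamRNA∆, against 11.3 and 11.5 CPM in mot2∆ (log2 fold change −0.94 ± 0.11, SE, adjusted p = 1.7e-05). sme2 had 8.17 and 8.45 CPM in mot2∆ mamRNA∆, against 34.2 and 32.4 CPM in mot2∆, a larger difference (log2 fold change −2.00, adjusted p = 1.7e-08). mrpl1 had 14.9 and 13.6 CPM in mot2∆ mamRNA∆, against 26.9 and 25.1 CPM in mot2∆ (log2 fold change −0.86 ± 0.08, SE, adjusted p = 4.8e-06). Neither gene had overlapping groups. crp79, a gene of messenger RNA export that shares 19 bases with mrpl1, had 56.1 and 56.4 CPM in mot2∆ mamRNA∆, against 80.8 and 72.9 CPM in mot2∆ (log2 fold change −0.45, adjusted p = 0.00044). mrpl1602 had 8.50 and 7.79 CPM in mot2∆ mamRNA∆, against 12.4 and 11.3 CPM in mot2∆ (log2 fold change −0.54 ± 0.12, SE, adjusted p = 0.0027).

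Deleting mot2 in cells without mamRNA gave decreases more often than increases. In mot2∆ mamRNA∆ against mamRNA∆, 11 of 33 fell and 7 rose, whereas 30.8% of all features were called lower and 29.6% higher, so the share that fell was close to that of all features. The median log2 fold change was −0.11 for the 33 genes and −0.02 for all features. With scaling by total counts the median of the 33 genes was −0.19, that of all features was −0.11, and 14 genes were called lower and 2 higher. The count called lower was 7 without mamRNA∆ replicate 2.

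mrpl8 again had the largest decrease, with 6.08 and 5.78 CPM in mot2∆ mamRNA∆, against 10.3 and 10.8 CPM in mamRNA∆ (log2 fold change −0.83 ± 0.11, SE, adjusted p = 3.5e-05). Both double mutant libraries were lower, although sme2 did not pass the test in this comparison, at 8.17 and 8.45 CPM in mot2∆ mamRNA∆, against 8.14 and 8.56 CPM in mamRNA∆ (adjusted p = 0.96). mrpl1 had 14.9 and 13.6 CPM in mot2∆ mamRNA∆, against 23.7 and 24.0 CPM in mamRNA∆ (log2 fold change −0.74 ± 0.08, SE, adjusted p = 1.2e-05). mrpl1602 had 8.50 and 7.79 CPM in mot2∆ mamRNA∆, against 11.99 and 13.0 CPM in mamRNA∆ (log2 fold change −0.62 ± 0.12, SE, adjusted p = 0.00090). All 3 genes had double mutant libraries below both mamRNA∆ libraries.

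The largest increase was that of mrpl1601, at 28.2 and 27.0 CPM in mot2∆ mamRNA∆, against 19.3 and 18.9 CPM in mamRNA∆ (log2 fold change 0.53 ± 0.09, SE, adjusted p = 0.00036). mrpl9 had 121 and 125 CPM in mot2∆ mamRNA∆, against 94.6 and 86.3 CPM in mamRNA∆ (log2 fold change 0.44 ± 0.08, SE, adjusted p = 0.00035). For both, the double mutant libraries lay above both mamRNA∆ libraries. Their partners were also higher: lys4 had a log2 fold change of 1.07 (adjusted p = 1.1e-06) and rna15 of 0.53 (adjusted p = 0.00014). mrpl37 had 22.1 and 21.3 CPM in mot2∆ mamRNA∆, against 17.7 and 17.0 CPM in mamRNA∆ (log2 fold change 0.33 ± 0.09, SE, adjusted p = 0.0057), and this call was lost with scaling by total counts (adjusted p = 0.074) and without mamRNA∆ replicate 2 (adjusted p = 0.059).

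The interaction is the direct test of whether the loss of mamRNA acts differently with and without Mot2. It is the log2 fold change of mot2∆ mamRNA∆ against mot2∆ minus that of mamRNA∆ against wt, and a value above 0 means that the double mutant lay above what the single mutants add up to. It was called above 0 for 11 of 33 genes and below 0 for 1, whereas 24.4% of all features were called above 0 and 23.3% below. The median interaction was 0.18 for the 33 genes and 0.00 for all features. With scaling by total counts the median of the 33 genes was 0.07, that of all features was −0.11, and 5 genes were called above 0 and 1 below. The counts above 0 and below 0 also depended on single libraries. Leaving out 1 library at a time gave medians of the 33 genes between 0.15 and 0.24.

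mrpl1601 had the largest interaction, 0.94 ± 0.13 on the log2 scale (SE, adjusted p = 0.00010). Its values were 28.2 and 27.0 CPM in mot2∆ mamRNA∆, 24.2 and 25.6 CPM in mot2∆, 19.3 and 18.9 CPM in mamRNA∆ and 30.0 and 36.0 CPM in wt, so that the libraries of both single mutants lay below those of the double mutant, although the difference of mot2∆ mamRNA∆ from mot2∆ did not pass the test (adjusted p = 0.19). lys4 had an interaction of 0.58 (adjusted p = 0.0027). For mrpl28 the interaction was 0.70 ± 0.15 (SE, adjusted p = 0.0022). Its values were 11.7 and 12.2 CPM in mot2∆ mamRNA∆, 11.2 and 10.3 CPM in mot2∆, 12.8 and 13.1 CPM in mamRNA∆ and 17.8 and 20.3 CPM in wt, so that the 3 mutants lay close together below wt. mrpl37 had an interaction of 0.58 ± 0.12 (SE, adjusted p = 0.0024), with 22.1 and 21.3 CPM in mot2∆ mamRNA∆, 15.8 and 17.3 CPM in mot2∆, 17.7 and 17.0 CPM in mamRNA∆ and 19.3 and 20.0 CPM in wt.

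mrpl1 was the only gene with an interaction called below 0, at −0.63 ± 0.12 (SE, adjusted p = 0.00087). It had 14.9 and 13.6 CPM in mot2∆ mamRNA∆, 26.9 and 25.1 CPM in mot2∆, 23.7 and 24.0 CPM in mamRNA∆ and 27.5 and 28.4 CPM in wt. The single mutants were thus nearer to wt, and the double mutant stood well below all of them. In mamRNA∆ the gene was still called lower than in wt (log2 fold change −0.23, adjusted p = 0.038). crp79 had an interaction of −0.75 (adjusted p = 0.00019), but with another pattern, since the feature was higher than wt in both single mutants and near wt in the double mutant. For mrpl8 the interaction was −0.33 (adjusted p = 0.086) and for mrpl1602 0.00, so neither passed the test, and for mrpl1602 the 2 single mutant changes on the log2 scale (−0.62 in mot2∆ and −0.54 in mamRNA∆) add up to the change in the double mutant (−1.16).

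**Figure D4:**
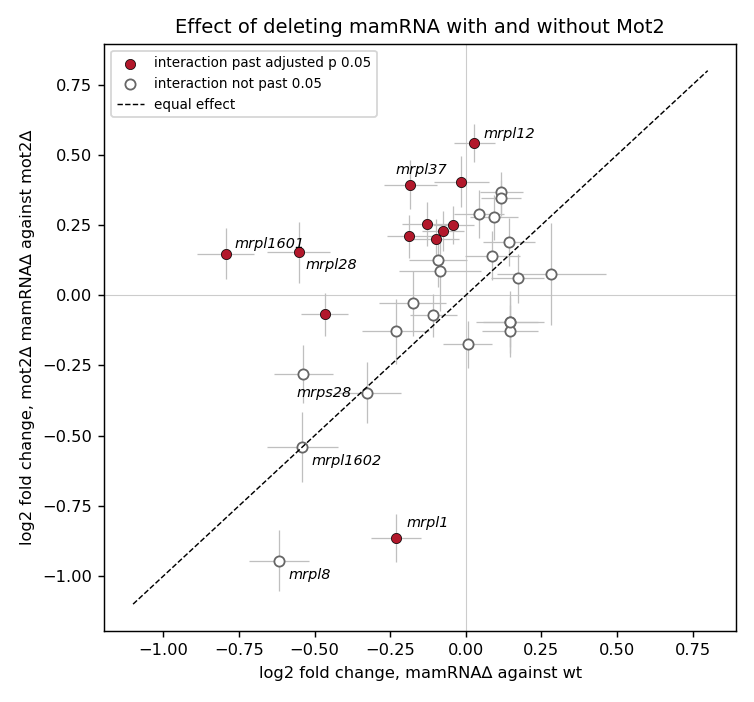
Log2 fold change of each of the 33 genes on deleting mamRNA in cells with Mot2 (x axis, mamRNA∆ against wt) and without Mot2 (y axis, mot2∆ mamRNA∆ against mot2∆), with SE bars, and filled where the interaction had an adjusted p under 0.05. The 11 genes with an interaction above 0 lie over the dashed line of equal effects, with mrpl1601 at −0.79 and 0.15, and mrpl1 lies under it at −0.23 and −0.86.

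The effects of deleting mamRNA in the 2 backgrounds, which share no library, had a Pearson's r of 0.445 and a Spearman's rho of 0.302 over the 33 genes, against −0.003 and 0.088 over all 6620 features. For deleting mot2, with and without mamRNA, the values were 0.473 and 0.496 over the 33 genes and 0.289 and 0.336 over all features. These values are across genes, which are not independent replicates, and describe these libraries only. On deleting mamRNA, mrpl1, mrpl8, mrpl1602, mrps12 and mrps28 were called lower in both backgrounds. mrpl9, mrpl1601 and mrpl28 were called lower only with Mot2 present. Among all features, 22.7% were called lower with Mot2 present and 28.8% without Mot2. The share of all features called lower in both backgrounds was not computed, so these calls have no background to be set against.

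The 33 genes can be set beside the 43 mitochondrial ribosomal protein genes with other names. In mot2∆ against wt, 18 of the 33 fell and 1 rose (median log2 fold change −0.21), and of the 43, 11 fell and 9 rose (median 0.00). In mamRNA∆ against wt, 8 of the 33 fell and 0 rose (median −0.08), and of the 43, 10 fell and 2 rose (median −0.06). In mot2∆ mamRNA∆ against wt, 14 of the 33 fell and 4 rose (median −0.07), and of the 43, 10 fell and 13 rose (median 0.01). The interaction was called above 0 for 11 and below 0 for 1 of the 33 (median 0.18), and above 0 for 4 and below 0 for 1 of the 43 (median 0.05). Among the 43, the largest changes were those of tam9, with log2 fold changes of −1.52 in mot2∆ mamRNA∆, −0.93 in mot2∆ and −0.82 in mamRNA∆ against wt, and on the other side those of rsm10 (0.69 in mot2∆ mamRNA∆) and mrp5 (0.61 in mot2∆). Of all features, 30.2% were called lower and 29.1% higher in mot2∆, beside 25.6% and 20.9% of the 43. For mamRNA∆ these shares were 22.7% and 19.9%, beside 23.3% and 4.65%. For the double mutant they were 30.5% and 28.9%, beside 23.3% and 30.2%. Interaction calls above and below 0 made up 24.4% and 23.3% of all features, beside 9.3% and 2.33% of the 43. The 43 were thus close to all features in the share lower in mamRNA∆ and the share higher in the double mutant. No test compared the groups. The names mrp and rsm alone would not find this group, since mrp1 is a non-coding RNA and rsm1 an RNA export factor by their annotation; the 28 features listed by such names gave 7 lower and 5 higher in mot2∆, 6 lower and 2 higher in mamRNA∆ and 7 lower and 8 higher in mot2∆ mamRNA∆.

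Of 20 listed factors and helpers of mitochondrial gene expression, 15 fell and 3 rose in mot2∆ mamRNA∆ against wt, 11 fell and 3 rose in mot2∆, and 5 fell and 4 rose in mamRNA∆. Among all features, 30.5% fell and 28.9% rose in mot2∆ mamRNA∆, and 30.2% fell and 29.1% rose in mot2∆. In mamRNA∆, 22.7% of all features fell and 19.9% rose, close to the shares of the 20 (25% and 20%). A further name on the list, cbs2, was left out after the values were seen, since its annotated product is a protein kinase activator. The largest decrease in the double mutant was that of ppr2, which encodes a pentatricopeptide repeat protein, a family that binds mitochondrial RNAs, at −1.05 on the log2 scale (adjusted p = 5.4e-05), and the largest increase was that of trz2, for transfer RNA 3′ processing in mitochondria, at 0.82 (adjusted p = 8.8e-06). Of 7 features listed by name as mitochondrial aminoacyl-tRNA synthetases, 4 have such a product in the annotation, and msd1, mst1 and msy1, which have others, were left out in the same way. Of the 4, msw1 rose and msf1 fell in mot2∆ mamRNA∆ against wt, with log2 fold changes of 0.29 (adjusted p = 0.0020) and −0.62 (adjusted p = 0.00048). Of the 4 subunits of the CCAAT-binding Php complex, php4 rose in mot2∆ mamRNA∆ against wt (log2 fold change 1.10, adjusted p = 1.5e-06) and php2 fell (−0.34, adjusted p = 0.00076).

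The genes were also set beside the 131 genes of cytosolic ribosomal proteins, which build the other ribosome of the cell. In mot2∆ against wt the median log2 fold change was −0.21 for the 33 mitochondrial genes and −0.29 for the cytosolic ones, of which 81 fell and 8 rose. In mot2∆ mamRNA∆ against mot2∆, 12 of the mitochondrial genes rose and 5 fell (median 0.13), and 115 of the cytosolic genes rose and 0 fell (median 0.49), where the 0 was the same at an unadjusted p under 0.05 and with DESeq2. In mamRNA∆ against wt, 0 of the mitochondrial genes rose and 8 fell (median −0.08), and 35 of the cytosolic genes rose and 6 fell (median 0.14). The median interaction was 0.18 for the mitochondrial genes and 0.33 for the cytosolic ones, for which it was called above 0 in 61 and below 0 in 1. Of all features, 30.2% fell and 29.1% rose in mot2∆ against wt. In mot2∆ mamRNA∆ against mot2∆, 27.4% of all features rose and 28.8% fell. In mamRNA∆ against wt, 19.9% of all features rose and 22.7% fell, beside 26.7% and 4.58% of the cytosolic genes. The interaction was called above 0 for 24.4% of all features and below 0 for 23.3%. The difference between these lists was not tested.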

How the data were processed

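RNA-seq counts of 8 libraries were analysed, 2 for each of 4 genotypes, grouped by their titles. Per the labels and the study's methods, the authors demultiplexed paired reads of 75 nt with bcl2fastq 2.18.12, trimmed them with Cutadapt 1.15, aligned them with Bowtie2 and counted reads per annotated feature. The deposited values are raw counts, with no normalization. The genome build and the strand setting are not given in the sources used here, so no coordinates or sequences are printed. Names, products, exon lengths and overlaps came from RefSeq ASM294v3, in which 6195 features were found by name. mrpl1602 was placed by its feature position.

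The analysis used edgeR 4.0.16 in R 4.3.3. filterByExpr (minimum count 10, minimum total 15) kept 6620 features. After TMM scaling, 1 model with a term for each genotype was fitted to all 8 libraries. Its differences were tested by the two-sided quasi-likelihood F test, adjusted by Benjamini-Hochberg over all features tested. CPM used TMM-scaled library sizes. The SE was the size of the log2 fold change divided by the square root of F. The scripts were tested on simulated data. Replicates differed by more than counting noise (chi-square divided by its degrees of freedom, 6.88 to 45.7 over the genotypes), so each library was counted as 1 sample.

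Genes were named by a rule: in each comparison, the 3 largest increases and decreases among called genes with groups apart, the 3 largest called interactions in each direction, every gene past a log2 fold change of 1, the 3 highest and lowest per kb, and genes that overlap another gene. Other genes in the text were chosen after their values were seen. The 33 genes, the rule and the other lists were chosen with earlier results of these data known; the list of 43 was taken from the annotated products. Alternatives were RLE size factors, total-count scaling, DESeq2 1.42.0, other filters, fits of the compared genotypes alone, a replicate block, a fold minimum, and leaving out each library.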

Additional observations from a re-analysis of the deposited data

Results flagged for a closer look

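The effect of deleting mamRNA differed between mot2∆ and wt cells, by the interaction test at an adjusted p under 0.05 in edgeR, for 12 of the 33 genes, 11 above 0 and 1 below, whereas 24.4% of all features were called above 0 and 23.3% below. Without double mutant replicate 2, the count above 0 was 5. The interaction was above 0 on the log2 scale for mrpl1601 (0.94), mrpl28 (0.70), mrpl37 (0.58), mrpl12 (0.51), mrpl33 (0.42), mrpl9 (0.40), mrpl22 (0.40), mrpl24 (0.38), mrpl20 (0.30), mrpl10 (0.30) and mrps18 (0.29), and below 0 for mrpl1 (−0.63). Of these 12, only mrpl10 and mrps18 overlap neither a protein-coding gene nor sme2, and the part of the overlaps was not tested. With DESeq2, 0 genes without such an overlap had an interaction called above 0. In addition, mrps18 shares 498 bases with the non-coding SPNCRNA.4235 on the opposite strand. Groups of 2 libraries are too small for a search for single outlying samples.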

How the results depend on the processing

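No gene named by the rule changed direction under any alternative. Requiring a log2 fold change over 1 left 0 genes called in each direction in every comparison and in the interaction, except 3 lower in mot2∆ mamRNA∆ against wt. Scaling by total counts gave 2 genes higher and a median of −0.12 in mot2∆ mamRNA∆ against wt, 6 higher and a median of 0.039 against mot2∆, 2 higher and a median of −0.19 against mamRNA∆, and 5 above 0 and a median of 0.065 in the interaction. DESeq2 and a fit of the compared genotypes alone each gave 2 higher in mot2∆ mamRNA∆ against wt, and the fit of the compared genotypes gave 0 higher in mot2∆ against wt. The cause was not tested in any of these cases. Leaving out 1 library at a time gave, in mot2∆ against wt, 0 to 1 higher, 15 to 18 lower and medians of −0.29 to −0.18; in mamRNA∆ against wt, 0 to 4 higher, 6 to 8 lower and medians of −0.098 to −0.035; in mot2∆ mamRNA∆ against wt, 1 to 6 higher, 10 to 14 lower and medians of −0.10 to −0.021; against mot2∆, 7 to 13 higher, 3 to 5 lower and medians of 0.057 to 0.14; against mamRNA∆, 5 to 8 higher, 7 to 11 lower and medians of −0.11 to −0.10; and in the interaction, 5 to 13 above 0, 1 to 3 below 0 and medians of 0.15 to 0.24. Where 1 library of a genotype was left, it was assumed to vary like those of the other genotypes.

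The shared replicate numbers did not pair the libraries (correlations of replicate differences between −0.108 and 0.163), so the genotypes share only a number. With a replicate block, 16 genes were lower in mot2∆ against wt, 7 in mamRNA∆ against wt and 14 in mot2∆ mamRNA∆ against wt, and 11 interactions were above 0. With the mamRNA∆ numbers exchanged, an alternative chosen after seeing the data, these counts were 18, 8, 14 and 13. RLE size factors, the other filters and leaving out antisense features moved no count of called genes by over 1.5 times. With 2 libraries per genotype, small changes such as those of mrpl10, mrps16 and mrpl19 lie near the threshold.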
